A study of Solanum lycopersicum var. cerasiforme with 6 samples.

Results

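The loci with identifiers from Solyc02g090000 to Solyc02g090999 form an interval on tomato chromosome 2 that holds the fruit weight gene FW2.2 (Solyc02g090730). All loci in that range were taken, and rows that share a locus were summed, which gave 97 loci (103 rows) out of 34075 loci in the count files. The rule used identifiers only, and the rows of the interval stand together, in identifier order, in every count file. The files give no name for any identifier, 0 of the 97 matched the RefSeq gene table of another assembly (SLM_r2.1) by identifier, and the name FW2.2 is the only one used here.

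The RNA came from young inflorescences of F3 progenies of Solanum lycopersicum var. cerasiforme that segregated for the fruit weight locus fw2.3. The fw2.3-D pools carried the derived allele and the fw2.3-WT pools the wild-type allele, called derived and wild-type pools below, with 3 pools a genotype and equal RNA from 2 plants in each pool. Both genotypes were grown unpruned and randomly placed in a greenhouse, and inflorescences were taken while the largest bud was shorter than 2 mm. Polyadenylated RNA was sequenced without keeping strand, so where genes on opposite strands overlap their reads cannot be told apart. The labels give no plant age, no parents, no position of fw2.3 and no genotype at any other locus.

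FW2.2 encodes a small membrane protein of the PLAC8 family, listed by RefSeq as the protein-coding gene fw2.2 (synonym ORFX) on chromosome 2. It is known as a negative regulator of cell division in the carpel and the young fruit, and its small- and large-fruited alleles are known to differ mainly in when and how strongly the gene is transcribed. A trait locus of this kind is mapped as a stretch of chromosome, so the genes on either side of a known fruit weight gene are inherited with it more often than distant genes are.

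Total counts ran from 22303511 to 28504360 a pool, and 3 counts, the limit that a count of 0 allows, came to 0.105 to 0.135 CPM (counts scaled to the pool's total) in a pool, covering only the error of counting. The CPM of loci below were instead scaled with TMM factors, and the RPKM were not. All pools differed by more than sampling noise: the chi-square per locus between pools ran from 13.5 upward, and the closest were the first pools of either genotype. Of 6 loci taken as floral identity genes from published locus numbers as remembered, 6 had counts in every pool, at 25.9 to 122 RPKM (CPM divided by gene length in kilobases). Pools are described as separate plants, so the spread between them includes plant-to-plant differences averaged within a pool.

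The interval was mostly transcribed in young inflorescences. Counts were present in 89 of the 97 loci, and 78 had counts in every pool. Together the loci took 0.271% to 0.315% of all counts in a pool, and they make up 0.285% of all loci. A mean level of 10 RPKM or more was found for 36 loci (37.1%), 1 to 10 RPKM for 33 (34.0%) and less than 1 RPKM, but not 0, for 20 (20.6%). The median over the interval was 5.24 RPKM, against 8.75 for the 101 loci with identifiers of Solyc02g089, 7.85 for the 102 loci of Solyc02g091, and 3.27 over all loci. The upper quartile ran the other way, at 25.7 RPKM in the interval against 20.9 and 21.1 in these flanks. The lower quartile was 0.740 RPKM in the interval, against 2.02 and 0.367 in these flanks. Levels thus spread over a wide range in the interval and in the flanks, and the differences between them were not tested.

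**Figure D1:**
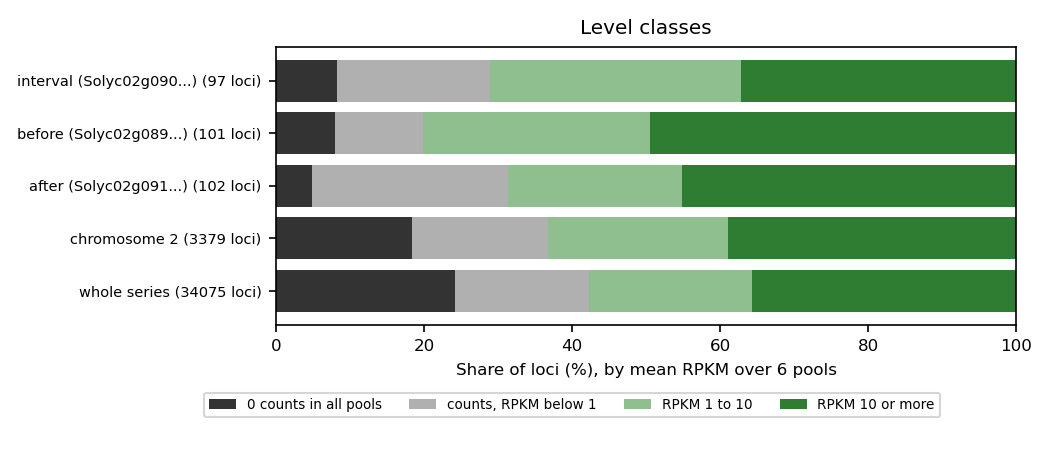
Share of loci (percent, horizontal axis) by mean RPKM over the 6 pools, in the interval, the identifier blocks before and after it, chromosome 2 and the whole series. Loci at 0 counts in all pools make up 8.25% of the interval, 7.92% and 4.90% of its flanks and 24.1% of all loci.

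The highest level belonged to Solyc02g090030, near the start of the interval. It stood at 277.9, 290.6 and 276.1 RPKM in the derived pools and 316.1, 326.6 and 295.4 RPKM in the wild-type pools. The groups overlapped once the counts were scaled with TMM factors, and the log2 fold change of fw2.3-D over fw2.3-WT was -0.13 (± 0.118 SE, edgeR adjusted p = 0.949). The second highest was Solyc02g090720, the neighbour just before FW2.2, at 148 ± 3.66 RPKM in derived pools and 138 ± 11.5 RPKM in wild-type pools (SD, n = 3). Above 50 RPKM there were 8 loci, at places that ran from Solyc02g090030 to Solyc02g090960. The 10 loci with the highest RPKM had log2 fold changes from -0.21 (Solyc02g090390) to 0.32 (Solyc02g090100), and none of them passed a test at an unadjusted p under 0.05.

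FW2.2 itself was near the lower end of the levels. It had 1, 0 and 4 counts in the derived and 6, 3 and 10 in the wild-type pools. The groups overlapped, since the third derived pool held more than the second wild-type pool. Per length, over the 613 bases that its RPKM imply, FW2.2 stood at 0.108 ± 0.136 RPKM in derived pools and 0.433 ± 0.233 RPKM in wild-type pools (SD, n = 3). Of the 89 loci with counts, 10 had a lower mean RPKM. The difference in mean CPM, -0.20, had p = 0.2 in a two-sided exact permutation test, which cannot go below 0.1 with 3 pools against 3. FW2.2 did not pass the filter on low counts, and edgeR without that filter gave a log2 fold change at -1.94 (± 1.18 SE, adjusted p = 0.92). Neither test called a difference at FW2.2, which had 5 counts in all derived pools together and 19 in all wild-type pools.

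The silent loci lay in the middle and later parts of the interval. The 8 loci with 0 counts in all 6 pools were Solyc02g090370, Solyc02g090397, Solyc02g090550, Solyc02g090590, Solyc02g090610, Solyc02g090780, Solyc02g090790 and Solyc02g090800. The last 3 are neighbours in identifier order, and Solyc02g090590 and Solyc02g090610 flank a locus, Solyc02g090600, that had 1 count in all pools together. These neighbours follow Solyc02g090770, which had 8, 12 and 16 counts in derived pools and 3, 4 and 15 in wild-type pools. Of the 26 interval loci whose row suffix is 1, 7 were silent (26.9%), against 1 of the 71 loci with another suffix (1.41%). Over all loci these shares were 49.9% and 10.5%, and what the suffix stands for is not stated in the sources used here. A further 15 loci had counts but too few for the filter, with totals from 1 to 70 over the 6 pools, which left 74 loci for the test.

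**Figure D2:**
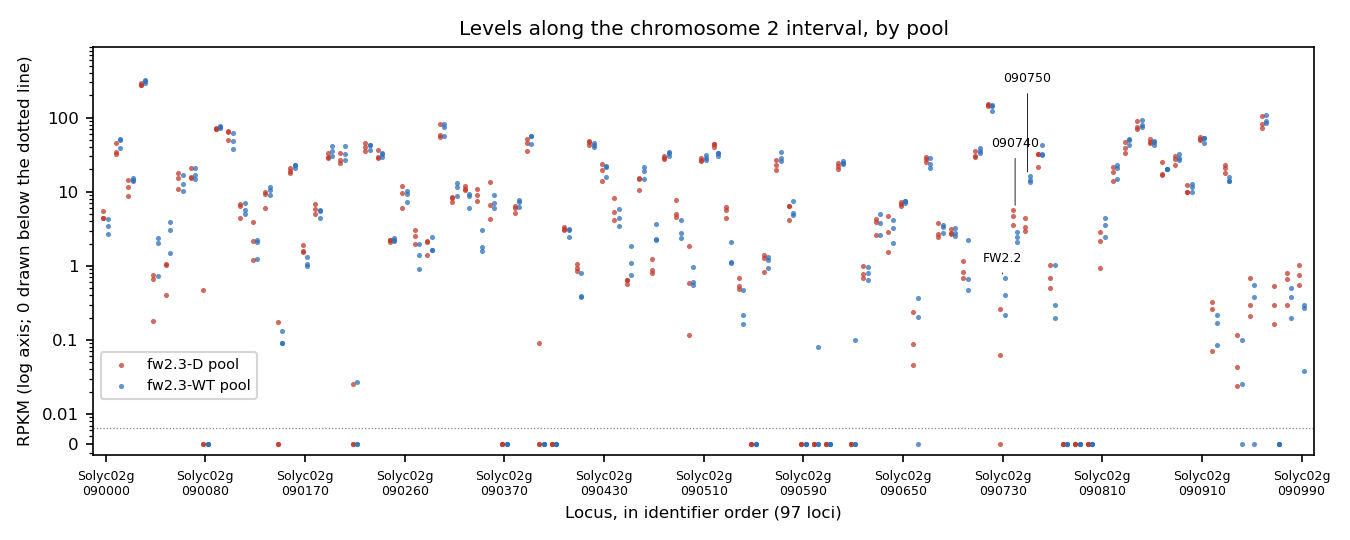
RPKM (vertical log axis) of each of the 97 loci in each pool, in identifier order along the horizontal axis, with pools at 0 drawn below the dotted line. Levels run up to Solyc02g090030 near the left end, FW2.2 lies below 1 RPKM next to Solyc02g090720, and the silent loci stand below the line in both genotypes.

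Between the genotypes, a single interval locus passed the test over the whole genome. Solyc02g090750, which lies 2 places after FW2.2 in identifier order, fell in derived pools to 5.11 ± 0.992 CPM, from 23.4 ± 1.87 CPM in wild-type pools (SD, n = 3). This was 4.58-fold lower, and the log2 fold change was -2.19 (± 0.175 SE, edgeR adjusted p = 0.00497). Summed over its rows, it held 154, 142 and 106 counts in the derived and 615, 514 and 539 in the wild-type pools, so the groups lay far apart. The test was the quasi-likelihood test of edgeR on 20936 loci, of which 5 had an adjusted p under 0.05 (0.0239%), 1 of them lower in derived pools (0.00478%). In whole inflorescences, fewer cells of a type and less RNA per cell cannot be told apart. The call was lost without fw2.3-D replicate 2 (log2 fold change -2.17, edgeR adjusted p = 0.0899) and without fw2.3-WT replicate 2 (-2.21, edgeR adjusted p = 0.0721). With every other pool left out it was kept, and limma did not make it on log2(RPKM + 1) (adjusted p = 0.0645) or on log2(RPKM + 0.1) (adjusted p = 0.0565).

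Solyc02g090740, between FW2.2 and Solyc02g090750, had more counts in derived pools. Its summed rows held 315, 220 and 247 counts in the derived and 119, 117 and 149 in the wild-type pools, and the groups did not overlap. The levels were 10.03 ± 2.49 CPM and 5.39 ± 0.565 CPM (SD, n = 3), for a log2 fold change at 0.89 (± 0.221 SE) that did not pass over all loci (edgeR adjusted p = 0.934). The direction at these neighbours was thus opposite. Set against each other within a pool, the summed counts of Solyc02g090750 were 0.489, 0.645 and 0.429 times those of Solyc02g090740 in the derived pools. In the wild-type pools they were 5.17, 4.39 and 3.62 times those of Solyc02g090740.

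These are the only loci of the series with several rows, and their rows did not all behave alike. At Solyc02g090740, the first row (suffix 3) held 236, 172 and 190 counts in derived pools against 61, 49 and 88 in wild-type pools. Its last row (suffix 5) went the other way, with 33, 12 and 29 against 48, 53 and 40. The first row thus took 74.9% to 78.2% of the locus in derived pools and 41.9% to 59.1% in wild-type pools. At Solyc02g090750, all 5 rows had fewer counts in every derived pool than in any wild-type pool. Row log2 fold changes there ran from -1.39 (± 0.375 SE) for suffix 2 to -2.49 (± 0.365 SE) for suffix 5. The row with suffix 4 alone passed over all rows (-2.40 ± 0.232 SE, edgeR adjusted p = 0.0178).

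The deposited RPKM table, which has 1 row for each of these loci, rests on fewer reads than the summed rows. Its values give whole reads in every pool, within 0.001 read, for a length of 1778 bases at Solyc02g090740 and 732 bases at Solyc02g090750, the smallest lengths that do so. The reads were 265, 182 and 211 in derived pools and 92, 98 and 121 in wild-type pools at Solyc02g090740. At Solyc02g090750 they were 85, 70 and 54 in derived pools and 293, 239 and 240 in wild-type pools. In each pool, the reads missing from both loci together (119, 110 and 88 in derived pools, 349, 294 and 327 in wild-type pools) equalled the amount by which the total behind the RPKM table fell short of the total of the count file. The RPKM table therefore kept 77.3% to 85.4% of the summed counts of Solyc02g090740 and 44.5% to 55.2% of those of Solyc02g090750. No file says which reads the RPKM table left out, or whether any read was counted in several rows.

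The size of the combined difference depended on which of these counts was used. With summed rows, both loci together stood at 15.1 ± 3.24 CPM in derived pools and 28.8 ± 1.38 CPM in wild-type pools (SD, n = 3), a log2 fold change at -0.93 (± 0.162 SE, edgeR adjusted p = 0.311). With the reads of the RPKM table they stood at 11.1 ± 2.67 CPM and 15.2 ± 0.682 CPM (SD, n = 3), a log2 fold change at -0.45 (± 0.184 SE, edgeR adjusted p = 0.949). The opposite directions of the loci did not depend on it: with those reads, Solyc02g090740 had a log2 fold change at 0.95 (± 0.236 SE, edgeR adjusted p = 0.935) and Solyc02g090750 one of -2.02 (± 0.230 SE, edgeR adjusted p = 0.0300). Per length, Solyc02g090750 went from 3.595 ± 0.803 RPKM in derived pools to 14.9 ± 1.32 RPKM in wild-type pools (SD, n = 3). Solyc02g090740 stood at 4.69 ± 1.09 RPKM and 2.47 ± 0.368 RPKM (SD, n = 3). In the derived pools the RPKM of Solyc02g090750 was 0.779, 0.934 and 0.622 times that of Solyc02g090740, and in the wild-type pools 7.74, 5.92 and 4.82 times.

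**Figure D3:**
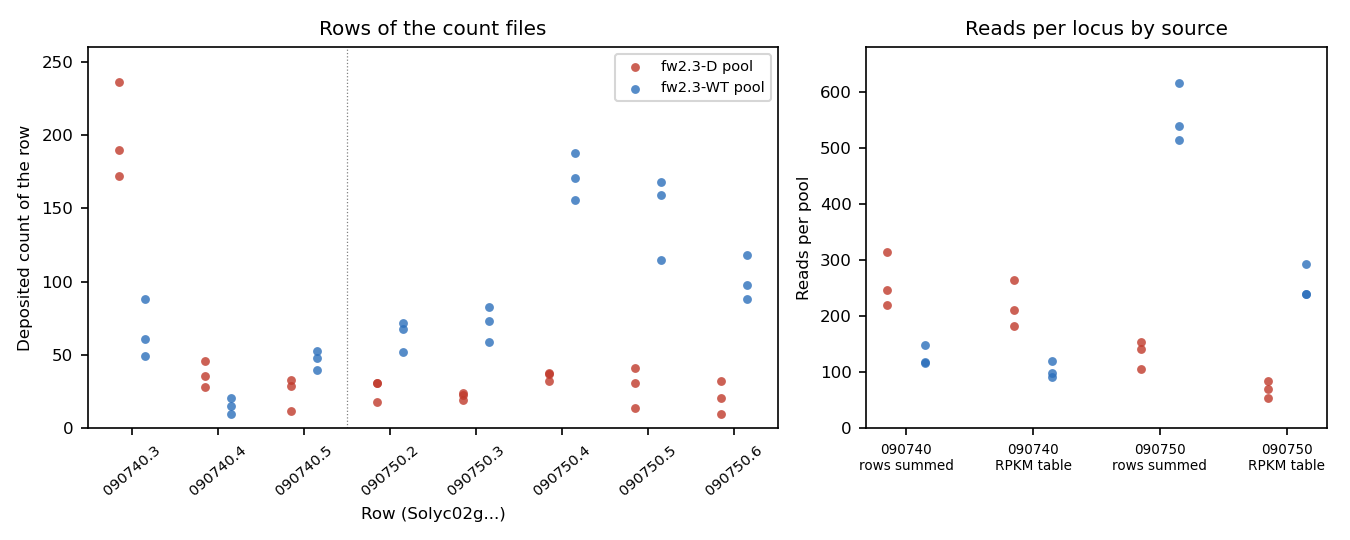
Left, deposited count (vertical axis) of each row of Solyc02g090740 and Solyc02g090750 in each pool; right, reads per locus and pool when rows are summed and as the RPKM table implies. The derived pools lie above the wild-type pools at suffixes 3 and 4 of Solyc02g090740 and below them at its suffix 5 and at every row of Solyc02g090750, and at Solyc02g090750 the RPKM table holds 44.5% to 55.2% of the summed counts.

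The loci around FW2.2 and this pair had smaller log2 fold changes. The 10 tested loci before FW2.2, from Solyc02g090620 to Solyc02g090720, had log2 fold changes from -0.16 to 0.20, with a median of -0.054. The 10 tested loci after Solyc02g090750, from Solyc02g090760 to Solyc02g090900, ran from -0.79 to 0.57, with a median of -0.075. None of these 20 had an unadjusted p under 0.05 in edgeR, and the lowest were 0.152 before and 0.0859 after. The extremes after the pair came from loci with few counts, Solyc02g090770 and Solyc02g090810. The latter had 18, 47 and 54 counts in derived and 65, 41 and 81 in wild-type pools. Solyc02g090760, the first of them and a long gene at 7755 bases, stood at 227 ± 54.4 CPM and 274 ± 50.6 CPM (SD, n = 3), and its groups overlapped.

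Besides Solyc02g090750, 12 interval loci, Solyc02g090740 among them, had an unadjusted p under 0.05 (3.53% of all tested loci had one) without a call over the genome. The nearest to a call was Solyc02g090350, with 450, 341 and 361 counts in the derived and 122, 57 and 70 in the wild-type pools. All derived pools were well above the wild-type pools, of which the first was the highest. The levels were 14.7 ± 3.10 CPM and 3.47 ± 1.37 CPM (SD, n = 3), a 4.25-fold difference and a log2 fold change at 2.08 (± 0.280 SE). The edgeR adjusted p was 0.0755, and it was 0.0154 without fw2.3-WT replicate 1 and 0.746 without fw2.3-WT replicate 2. DESeq2 called it (adjusted p = 1.07e-09), as did edgeR without the filter (adjusted p = 0.00825), where 9 of 25857 loci were called (0.0348%).

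Solyc02g090540 had a similar pattern at a lower level. It held 110, 157 and 149 counts in the derived and 49, 24 and 25 in the wild-type pools, again with the first wild-type pool highest. The log2 fold change was 1.94 (± 0.326 SE, edgeR adjusted p = 0.252), and DESeq2 called it (adjusted p = 8.42e-05). DESeq2 called 3 interval loci, these and Solyc02g090750, against 43 of the 22406 loci it adjusted (0.192%). The loci on either side of Solyc02g090540 leaned the same way: Solyc02g090530 held 1899, 1905 and 1847 counts against 1218, 1229 and 1326 (log2 fold change 0.44 ± 0.109 SE, edgeR adjusted p = 0.934). Solyc02g090545, singled out after its values were seen, held 45, 45 and 57 against 38, 12 and 17, and its groups overlapped (log2 fold change 1.00 ± 0.454 SE, edgeR adjusted p = 0.949).

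The clearest lower locus apart from Solyc02g090750 was Solyc02g090470. It had 36, 26 and 25 counts in the derived and 102, 59 and 60 in the wild-type pools, without overlap. Its log2 fold change was -1.47 (± 0.359 SE, edgeR adjusted p = 0.913). Solyc02g090045, near the start of the interval, had 16, 18 and 6 counts against 58, 20 and 44, and its second wild-type pool came close to the derived pools (log2 fold change -1.74 ± 0.529 SE, edgeR adjusted p = 0.949). Its neighbours were singled out after their values were seen. Solyc02g090040, which was too low for the filter, had 2, 8 and 8 against 21, 7 and 24, and the groups overlapped. On the other side of Solyc02g090045, Solyc02g090060 had a log2 fold change at 0.18 (± 0.322 SE, edgeR adjusted p = 0.960). Solyc02g090470 and Solyc02g090045 were also the most like Solyc02g090750 among the tested interval loci in log2(CPM + 0.5) over the 6 pools, at Pearson r = 0.946 and 0.866, followed by Solyc02g090090 at 0.799. With 6 pools in 2 genotypes, this likeness is a description only.

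The other loci with an unadjusted p under 0.05 differed by less or had few counts. Solyc02g090930 held 796, 1020 and 996 counts in derived pools and 662, 535 and 574 in wild-type pools, with a log2 fold change at 0.52 (± 0.130 SE). Solyc02g090490 held 200, 201 and 301 against 90, 144 and 105 (log2 fold change 0.91 ± 0.277 SE). Solyc02g090290 (log2 fold change 0.83), Solyc02g090340 (0.49) and Solyc02g090330 (-0.46) had their groups close together. In edgeR the adjusted p of these 5 was from 0.945 to 0.949.

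In 6 further tested loci the pools stood apart although the unadjusted p was 0.05 or more. Solyc02g090450 held 21, 23 and 18 counts in derived pools and 34, 21 and 55 in wild-type pools, with the second wild-type pool just above the derived ones in CPM (log2 fold change -0.95 ± 0.430 SE, edgeR adjusted p = 0.949). Solyc02g090170 held 62, 58 and 49 against 33, 28 and 40 (0.60 ± 0.314 SE). Solyc02g090410, under 1 CPM on average and singled out after its values were seen, held 26, 26 and 28 against 21, 9 and 10 (0.86 ± 0.466 SE). The first locus of the interval, Solyc02g090000, held 118, 163 and 113 against 88, 62 and 106 (0.48 ± 0.246 SE). Solyc02g090160 (-0.19) and Solyc02g090090 (-0.06) had log2 fold changes close to 0, and their pools were apart by narrow margins. Pools of a single genotype could also lie far from each other: Solyc02g090360, singled out after its values were seen, held 707, 371 and 217 counts in derived pools and 441, 269 and 339 in wild-type pools, with a coefficient of variation of 62.4% in CPM over the derived pools.

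The last loci of the interval had few counts. Solyc02g090990, the last of them, held 21, 17 and 28 counts in derived pools and 1, 7 and 7 in wild-type pools (log2 fold change 1.98 ± 0.645 SE, edgeR adjusted p = 0.949). Solyc02g090970, singled out after its values were seen, held 15, 5 and 8 in derived pools and 0 in every wild-type pool. The derived mean, 0.364 ± 0.217 CPM (SD, n = 3), was 2.88-fold above a floor of 3 counts in each wild-type pool (0.126 CPM). That fold bounds the wild-type side only and leaves out the spread of the derived pools, the second of which was at 0.174 CPM. Without the filter, edgeR gave Solyc02g090970 an unadjusted p of 0.0032 and an adjusted p of 0.919. Of the 34075 loci of the series, 42 had counts in all derived pools and none in wild-type pools, and 21 had the reverse. In the interval these numbers were 1 and 0. Solyc02g090980, between Solyc02g090970 and Solyc02g090990, had 22, 9 and 18 counts against 13, 9 and 5, and its groups overlapped. Just outside the interval, Solyc02g091000 had 43, 81 and 32 counts against 74, 50 and 51, and at the other end Solyc02g089990 and Solyc02g090000 had edgeR unadjusted p-values of 0.744 and 0.0823.

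**Figure D4:**
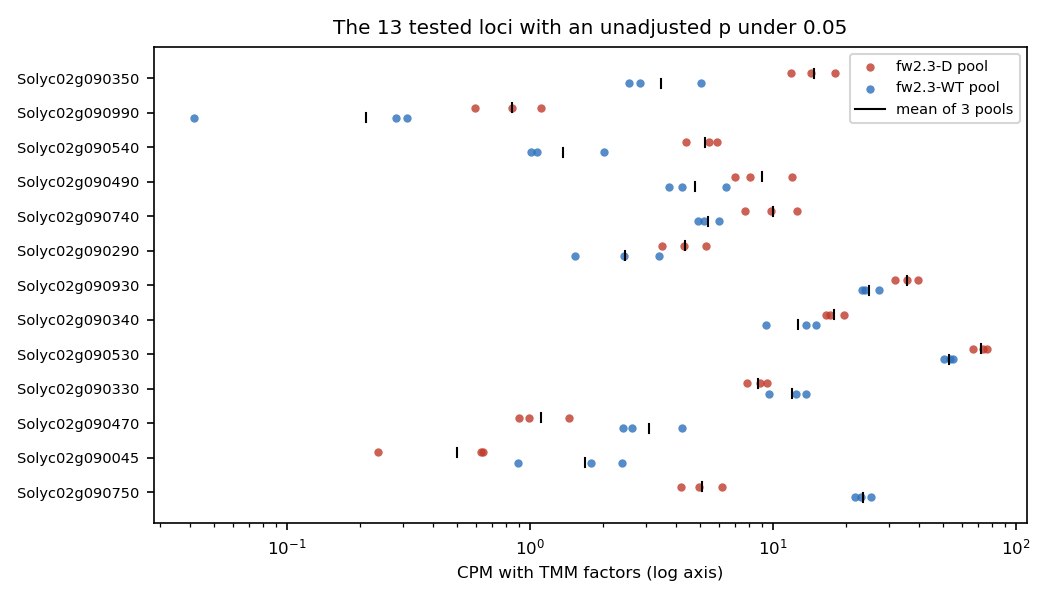
CPM with TMM factors (horizontal log axis) of the 13 tested interval loci with an unadjusted p under 0.05, with 1 point per pool and a bar at the mean of each genotype. The pools of the genotypes do not overlap in any of the 13, with the widest gaps at Solyc02g090750, Solyc02g090350 and Solyc02g090540.

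Counted along the interval, 13 of the 74 tested loci (17.6%) had an unadjusted p under 0.05, where 3.53% of all tested loci did. Of these, 9 were higher in derived pools (background 2.05%) and 4 were lower (background 1.48%). The same count was 5 of 86 (5.81%) in the block before the interval and 7 of 76 (9.21%) in the block after it. Derived and wild-type pools were fully apart in 19 tested interval loci (25.7%), against a background of 9.46%, with 12 higher (background 5.15%) and 7 lower (background 4.31%). An absolute log2 fold change over 1 was found in 7 (9.46%), against 1.27% of all tested loci. No set test was made of these shares, the interval was chosen with earlier results of these data known, and neighbouring loci are not independent. The 13 loci had a median level of 4.42 RPKM, and the 74 tested loci one of 9.58 RPKM.

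The interval as a whole leaned neither way. Of the tested loci, 35 had a higher and 39 a lower value in derived pools, and the median log2 fold change was -0.018, with quartiles of -0.16 and 0.20. Over all tested loci the median was 0.0009 and the quartiles were -0.14 and 0.14. In 57 of the 74 loci (77.0%) the log2 fold change was less than 0.5 in size, against 92.9% of all tested loci.

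The 13 loci with an unadjusted p under 0.05 lay in several stretches. Split into blocks of 100 identifiers, the block from Solyc02g090300 held 3 of them, and the blocks from Solyc02g090400, Solyc02g090500, Solyc02g090700 and Solyc02g090900 held 2 each. The blocks from Solyc02g090000 and Solyc02g090200 held 1 each. The blocks from Solyc02g090100, Solyc02g090600 and Solyc02g090800 held 0. In the block from Solyc02g090600, just before FW2.2, all 8 tested loci had log2 fold changes between -0.11 and 0.20, and in none of them did the genotypes stand apart. The block from Solyc02g090700 with the multi-row loci thus lay between blocks with no such locus.

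**Figure D5:**
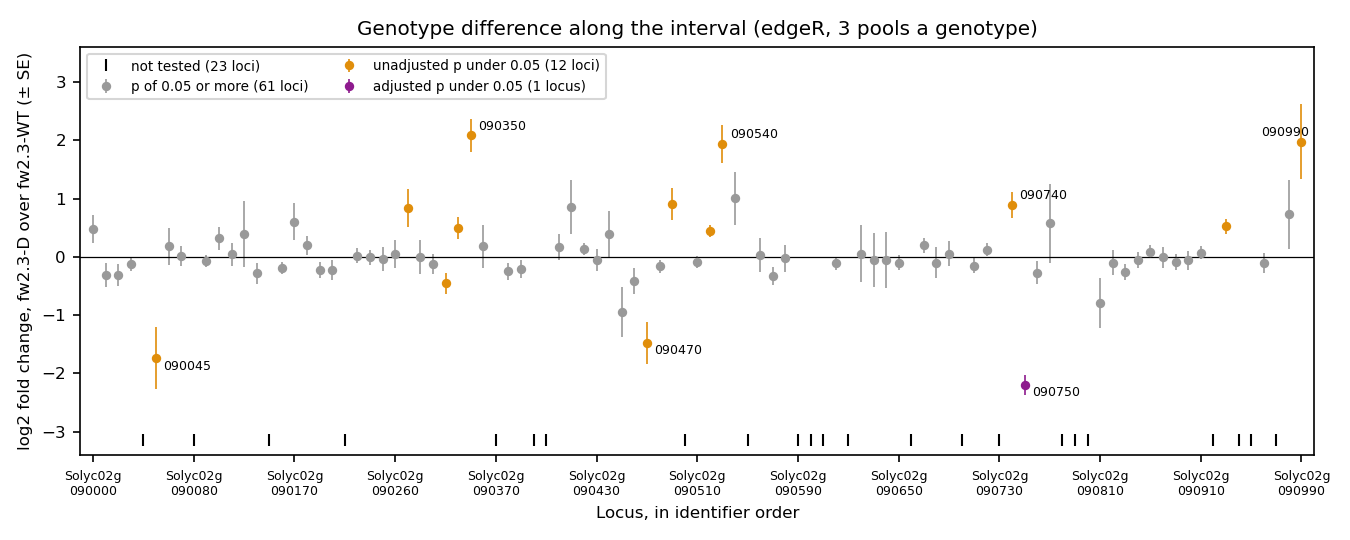
log2 fold change of fw2.3-D over fw2.3-WT with its SE (vertical axis) for the 74 tested loci in identifier order, with ticks at the bottom for the 23 loci not tested. Solyc02g090750 is the single locus called over all loci, at -2.19, and the 12 others with an unadjusted p under 0.05 lie on both sides of 0, in several places along the interval.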

How the data were processed

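The authors deposited whole-number read counts per gene row, not normalized (34081 rows a pool), and a table of RPKM (34075 rows) that the file name ties to SL4.0. Cutadapt, STAR and edgeR are named, without roles, in the submitters' processing notes; the sources used here name neither the counting program nor how multi-mapped reads were handled. Deposited counts and RPKM gave a single whole gene length in 24593 of 24595 loci (within 0.01 base), the exceptions being the multi-row loci. Rows were summed per locus. Loci were tested with edgeR 4.0.16 under R 4.3.3 (its two-sided quasi-likelihood test, TMM factors, filterByExpr with a minimum count of 10, genotype as the only term), with Benjamini-Hochberg adjustment over all 20936 tested loci; the SE is the log2 fold change over the square root of F. The test was tested on simulated data. Alternatives used DESeq2 1.42.0 and limma 3.58.1. Where a locus is at 0 in a genotype, the fold is the mean of the other genotype over a floor of 3 counts a pool, which bounds only the genotype at 0.

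Interval, lists and tests were chosen with earlier results of these data known. Named loci are FW2.2, the multi-row loci and their rows, loci called or with an unadjusted p under 0.05, loci of at least 1 CPM whose pools do not overlap, the 10 with the highest RPKM, the 10 tested loci on either side of the multi-row loci and FW2.2, and the ends of the interval. That rule took 10 higher and 7 lower loci without overlap.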

Additional observations from a re-analysis of the deposited data

How the results depend on the processing

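Excluding the first pools, taking both multi-row loci as a unit, and all alternatives for the number of loci with an unadjusted p under 0.05 and for the 11 other named loci were chosen after seeing the data. The single interval call became 2 without a filter, with the replicate block, at an adjusted p under 0.1 and when the first pools were excluded, with Solyc02g090350 as the second call each time. It became 3 with DESeq2. Limma gave 0 calls on log2(RPKM + 1) and 0 on log2(RPKM + 0.1), where 13 and 14 interval loci had an unadjusted p under 0.05. Excluding single pools gave 0 to 2 calls. At Solyc02g090750 the log2 fold change was -1.80 (limma adjusted p = 0.0645) for log2(RPKM + 1) and -2.04 (limma adjusted p = 0.0565) for log2(RPKM + 0.1), and -2.35 to -2.07 when single pools were excluded, with edgeR adjusted p-values up to 0.0899. The cause was not tested. Solyc02g090740 was above 0 and uncalled in all 17 alternatives, of which the one with unsummed rows used its row of highest count (1.47, suffix 3) while its suffix 5 row was at -1.05; it was at 0.69 to 1.05 when single pools were excluded. The difference at FW2.2 stayed below 0 in all 10 alternatives, at -0.26 to -0.12 CPM when single pools were excluded. Silent loci numbered 15 when defined by a mean RPKM under 0.1 in place of 8, and 8 to 10 when single pools were excluded. The median log2 fold change of the interval was -0.073 when the first pools were excluded, -0.054 for limma on log2(RPKM + 0.1), and -0.072 to 0.012 when single pools were excluded, so its sign is not fixed. The number of loci with an unadjusted p under 0.05 stayed within 1.5 times of 13 in all 17 alternatives. It was lowest, at 10, without fw2.3-WT replicate 3. The highest value, 19, came with unsummed rows and counts rows, not loci, since each row of the multi-row loci had such a p. The 11 other named loci were taken for an unadjusted p under 0.05, and their pools did not overlap, so a reversal was hardly possible. Of their 185 fold changes under alternatives, 0 reversed and 6 came with an adjusted p under 0.05. The replicate numbers were not taken to pair the pools, since deviations at the same number correlated with r = 0.411, -0.139 and 0.0815. By these correlations 2 of 6 pools were closest to their own number, and by chi-square between counts the nearest pool of the other genotype had the same number for 4 of 6. Of the 23 loci not tested, 15 had too few counts for the filter at this depth, FW2.2 among them, and 8 had none.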
